A study of Mus musculus with 16 samples.

Results

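The proteasome is the protease complex that degrades ubiquitin-tagged proteins in the cytoplasm and nucleus, and its subunits, caps, inhibitor and assembly chaperones are encoded by genes whose mouse symbols begin with Psma to Psmg. The genes described here carry such a symbol without the pseudogene mark -ps and had a mean of at least 10 counts over the 8 input libraries. Of 46983 genes in the table, 50 matched the name and 48 also passed the count minimum, and 4 pseudogene symbols were left out. Psmb8 and Psmb11 matched the name and fell below the minimum. Psmc3ip entered by its name alone, since it encodes a meiotic recombination factor that binds a base ATPase and not a proteasome subunit. Of the 48 genes, 47 passed the filter of at least 1 CPM (counts scaled to the size of each library) in at least 10 of 16 libraries and entered the tests, and Psme2b did not.

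RNA was sequenced from 46C embryonic stem cells (ESCs), a mouse line of strain 129Ola with GFP at the Sox1 locus, kept on gelatin in serum replacement medium with leukaemia inhibitory factor. Cells received a non-targeting control siRNA or an siRNA against RAM for 48 hr. RAM, encoded by Ramac, is the activating subunit of the enzyme that methylates the mRNA cap. After cycloheximide treatment, RNA was taken from the cytoplasmic lysate (input) and from pooled sucrose gradient fractions 17 to 22 (polysomes), which gave 4 groups of 4 libraries. All groups are therefore 1 line under transfection, and the study's supplement names a single RAM siRNA for the polysome experiment.

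In the core particle, rings of alpha subunits (Psma) gate a chamber formed by rings of beta subunits (Psmb), of which Psmb5, Psmb6 and Psmb7 carry the proteolytic sites. Psmb8, Psmb9 and Psmb10 are interferon-inducible beta subunits that take the places of Psmb5, Psmb6 and Psmb7 in the immunoproteasome. The 19S regulatory particle binds and unfolds substrates with its base, built from the ATPases Psmc1 to Psmc6 and the scaffold or receptor subunits Psmd1, Psmd2 and Psmd4, and removes ubiquitin with its lid, where Psmd14 is the deubiquitinase. Alternative caps open the core without ATP: Psme1 and Psme2 form PA28 alpha-beta, Psme3 forms the nuclear PA28 gamma and Psme4 is PA200. Psmf1 (PI31) binds and can inhibit the core, Psmg1 to Psmg4 are chaperones that assemble it, and Psmd5, Psmd9 and Psmd10 chaperone the base. Pluripotent cells are known for high proteasome activity.

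The 16 libraries held between 16647523 and 20147833 counts. Ramac fell from 11.2 ± 0.62 to 3.14 ± 0.241 CPM in input (SD, n = 4; log2 fold change -1.84, adjusted p = 7.24e-06, edgeR's quasi-likelihood test, p-values adjusted by Benjamini-Hochberg). Summed input levels of the 8 ESC markers were 4801 to 5149 CPM in control and 3988 to 4636 CPM in RAM siRNA libraries. Of these 8, 3 were called lower (7 with a replicate block), against 5.94% of all genes tested (19.0% with the block). Summed input levels of 4 endoderm markers were 3.75 to 5.08 and 5.80 to 7.12 CPM, those of 4 neural markers 74.8 to 87.0 and 81.2 to 95.6, of 3 mesoderm markers 14.0 to 16.7 and 12 to 15.8, of 4 fibroblast markers 17.3 to 20.2 and 18.7 to 29.0, and of 2 trophoblast markers at most 0.662. Each of these markers had counts in some input library. In the other lists, 1 endoderm marker was called higher in both fits. With the block, 1 neural marker was called lower and 1 higher, 1 mesoderm marker lower and 1 fibroblast marker higher. Of all genes tested, 6.95% were called higher without the block and 20.3% with it. The ESC and endoderm sums moved with RAM siRNA, and their part in the differences below was not tested. The RAM siRNA polysome library of replicate 2 stood apart, with a mean of 6.65 log2 CPM over the 48 genes against 7.01 to 7.31 in 3 other RAM siRNA polysome libraries and 6.97 to 7.31 in control polysomes. Its values are given beside each polysome result.

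The 48 genes took 0.547% to 0.658% of the counts of control input libraries and 0.507% to 0.644% after RAM siRNA. In polysomes they took 1.17% to 1.42% and 0.928% to 1.43%. Levels were compared between genes only as CPM per kilobase of the principal transcript. In control input the highest were the catalytic subunit Psmb6 at 260.5 ± 15.0 (SD, n = 4), the ATPase Psmc1 at 218.7 ± 7.28 and the structural subunit Psmb3 at 218.4 ± 12.8. The last pair differed by less than their spread. The lowest were Psmb9 at 0.496 ± 0.19, Psme2b at 1.03 ± 0.209 and Psmb10 at 6.53 ± 0.631.

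Subunits that share a particle were not at 1 level. The 14 standard core genes ranged from 20.4 (Psmb5) to 260.5 (Psmb6) CPM per kilobase with a median of 125.4, a range of 12.8-fold, and without Psmb5 of 5.07-fold. Of the 75-base words of the Psmb5 transcript, 40.0% also lie in other annotated genes, which leaves its level uncertain. Among the other core genes this share was 39.8% for Psma5, 33.1% for Psmb3, 24.1% for Psmb7, 21.3% for Psma3 and 16.7% for Psma4. Their levels are uncertain too. The 17 regulatory particle genes ranged from 23.7 (Psmd11) to 218.7 (Psmc1), with a median of 90.9. With summed exon length in place of the principal transcript, Psmc1 ranked 1 and Psmb6 ranked 4, so the order of single genes depends on the length used. Psma8, an alpha subunit of the germline, stood at 10.9 ± 1.38 CPM per kilobase. Psmb8 had 0 to 2 counts in any input library and Psmb11, the thymus subunit, 0 or 1.

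**Figure D1:**
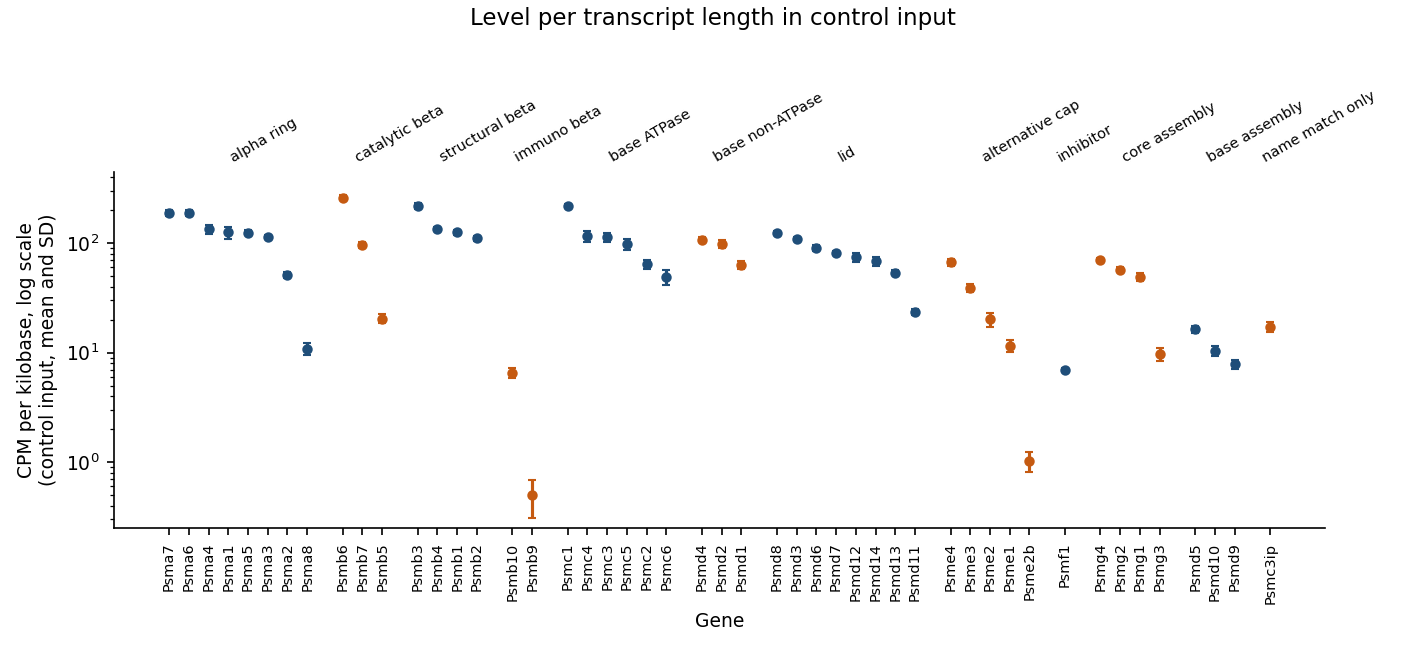
Level of each of the 48 genes in control input on a log axis, as CPM per kilobase of the principal transcript (points, mean; bars, SD of 4 libraries), grouped by role. Core and regulatory subunits lie mostly between 20.4 and 260.5, while Psmb9, at 0.496, and Psme2b, at 1.03, lie lowest.

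In input, RAM siRNA cells had less mRNA of 3 of the 4 tested alternative cap genes, of the lid subunit Psmd13 and of the core assembly chaperone Psmg3, and more mRNA of the catalytic subunit Psmb7 and the immunoproteasome subunit Psmb9. Of 47 genes tested, 5 were lower and 2 higher at an adjusted p under 0.05, against 5.94% and 6.95% of all 12805 genes tested (edgeR's quasi-likelihood test). The share called lower, though not that called higher, was above that of all genes. The median log2 fold change of the 47 was -0.11, and 38 were below 0, whereas the median of all genes was 0.0007 with 49.9% below 0. In bulk RNA, fewer cells of a type and less RNA per cell cannot be told apart. Same-numbered libraries deviated together, and with the replicate number as a block 20 were lower and 3 higher, against 19.0% and 20.3% of all genes. Of these 20, 19 encode proteasome proteins and the other is Psmc3ip, the recombination factor (adjusted p = 0.0406). The count without the block rested on single libraries. It was 12 without RAM siRNA replicate 4 (all genes, 8.97%) and 3 without control replicate 2 (460 of all 12805 genes). It was 2 without control replicate 4 (558 of all genes), RAM siRNA replicate 1 (431) or RAM siRNA replicate 3 (614). It was 1 without control replicate 1 (426 of all genes) or RAM siRNA replicate 2 (490). The share called lower was thus not above that of all genes in every fit. The count of higher genes was 1 without either of the last pair of libraries (502 and 578 of all genes).

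**Figure D2:**
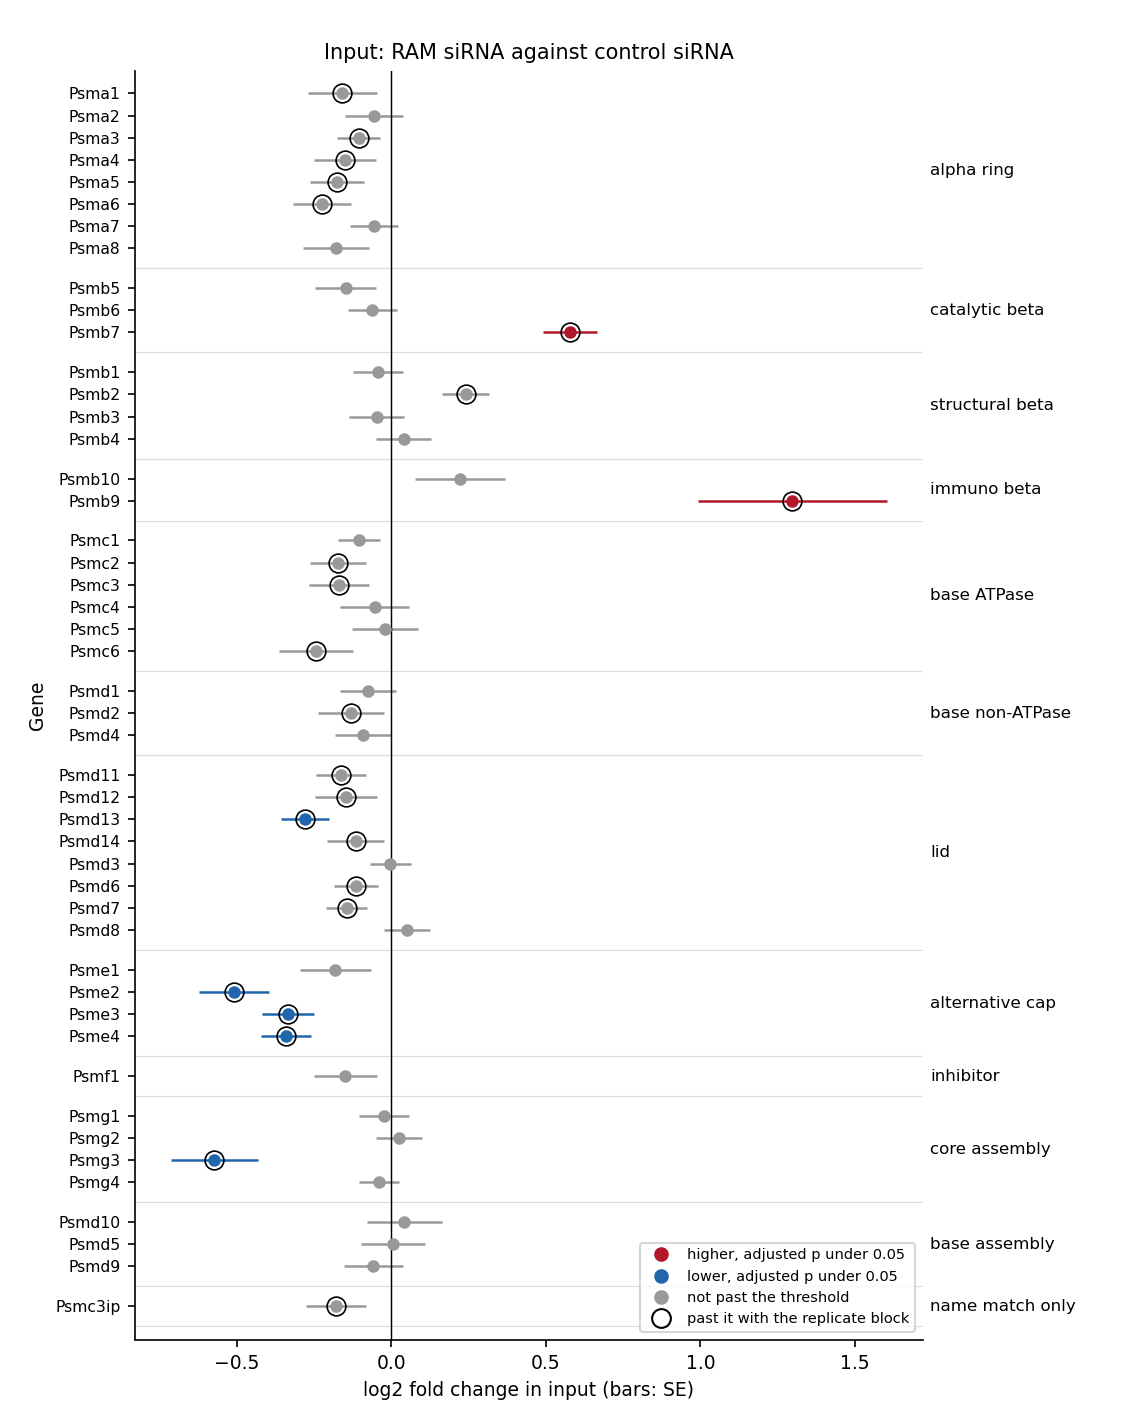
Log2 fold change of each tested gene in input, RAM siRNA against control (points; bars, SE; 4 libraries in each group), by role. Filled colours mark the 5 genes lower and 2 higher without a block, and black rings the 20 lower and 3 higher with it.

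The short stretches that follow are shown because they lie in the genes that changed. The word CCGGAAG, the core of ETS factor motifs, was looked for on either strand of RefSeq promoters (GRCm38.p6, 250 bases before to 50 after the start). It was found in 15 of the 40 genes described here that had an entry (37.5%), Psmc3ip among them. Its share was 20.6% in tested genes and 9.93% in all genes with an entry. Genes called lower in input held it in 25.2% of promoters and genes called higher in 14.0% (with the block, 21.8% and 16.8%). It was present in 4 of the 5 genes that fell, where capitals mark the match, and not in Psme2. Psme3 held 2 matches, of which the nearer to the start is shown. No promoter entry was matched for Psmb7 and Psmb2.
Psme4 promoter, chr11:30771712-30771738, plus strand: tggccccgccCCGGAAGtgacttgagg
Psme3 promoter, chr11:101316205-101316231, minus strand: gccgctcacgCCGGAAGttgcgtcaca
Psmd13 promoter, chr7:140882378-140882404, plus strand: gcccgcggtgCCGGAAGtgagcgagca
Psmg3 promoter, chr5:139826874-139826900, minus strand: cggacaggaaCCGGAAGttctcgccgg

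The core TGACNNNGC is read by Nrf1 and Nrf2, factors that can raise proteasome genes. It was found in 6 of the 40 promoters (15.0%), against 16.9% of tested genes. CCAAT, read by NF-Y, was found in 14 (35.0%), Psmc3ip among them, against 43.5%. Matches of these words were counted on both strands and may overlap. They are matches of letters and no binding was measured. In earlier results of these data, 3′ UTRs of genes that fell often held ACTATC and those of genes that rose TTGCTCAA, so both words were looked up. Since the words were picked from these data, their shares among called genes are no independent evidence. ACTATC lay in 38.6% of the 3′ UTRs of genes called lower, 8.96% of those called higher and 16% of all. It lay in those of 5 of the 47 genes tested here, which include Psmc3ip (10.6%): Psma2, Psmd5, Psmd9, Psme3 and Psme4. Psma2, Psmd5 and Psmd9 were not called in input with or without the block (log2 fold changes -0.06, 0.01 and -0.06). TTGCTCAA lay in 6.17% of genes called higher, 1.33% of those called lower and 2.40% of all, and among proteasome genes in Psmb7 alone. Its 6-base core TGCTCA lay in 9 of the 47 (19.1%), with Psmb7 and also Psme3 and Psme4, which fell. That core lay in 49.1% of genes called higher, 37.6% of those called lower and 39.3% of all. The stretches are from GRCm38, on the strand of the gene, with the word and any extension of it in capitals.
Psme4 3′ UTR, chr11:30879923-30879950, plus strand: agtagcctagTACTATCAtggtattatg
Psme3 3′ UTR, chr11:101321932-101321957, plus strand: ttgttacatgACTATCgtgatgggaa
Psmb7 3′ UTR, chr2:38588059-38588086, minus strand: cctttggcaaTTGCTCAAttaaaataaa

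Of the 5 genes that fell, 3 encode alternative caps. Psme4 (ENSMUSG00000040850, chr11:30771726-30880361) was at 467, 418, 400 and 457 CPM in control input replicates 1 to 4 and at 373, 339, 314 and 350 CPM in RAM siRNA replicates. Psme3 (ENSMUSG00000078652, chr11:101316213-101323537) was at 102, 103, 97.0 and 115 CPM in control libraries, against 79.2, 75.9, 80.7 and 94.7 CPM in RAM siRNA libraries. Psme2 (ENSMUSG00000079197, chr14:55587441-55591113) was at 17.9, 23.6, 18.3 and 17.5 CPM in control libraries, against 12.7, 14.8, 14.1 and 12.8 CPM in RAM siRNA libraries. In all 3 genes the RAM siRNA libraries were wholly below the control libraries, and for Psme2 control replicate 2 was the high one. The log2 fold changes were -0.34 for Psme4 (SE 0.0815, adjusted p = 0.0174), -0.33 for Psme3 (SE 0.0848, adjusted p = 0.0230) and -0.51 for Psme2 (SE 0.113, adjusted p = 0.0120; edgeR's quasi-likelihood test). Psme1, the partner of Psme2, was not past the threshold, with 88.3% of the control mean, a log2 fold change of -0.18 and an adjusted p of 0.342. Its levels, 11.2, 14.9, 12.2 and 13.3 CPM in control libraries, against 9.78, 11.8, 11.7 and 12.3 CPM in RAM siRNA input, overlapped. Psme2 shares 51.7% of its 75-base words with the single-exon gene Psme2b, so reads of this pair can be exchanged. Psme2b itself was at 0.859 ± 0.175 CPM in control input and 0.628 ± 0.244 CPM after RAM siRNA (SD, n = 4). Without the block, the call of Psme3 was lost on leaving out control replicate 1, 2 or 4 or RAM siRNA replicate 1, 2 or 3 (adjusted p 0.0532 to 0.0761), and that of Psme4 on leaving out control replicate 1 (0.0707) or RAM siRNA replicate 2 (0.0527). With the block, adjusted p-values were 1.77e-06 for Psme4, 6.07e-06 for Psme3 and 2.34e-05 for Psme2.

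Among the catalytic subunits, Psmb7 rose and the others did not pass the threshold. Psmb7 (ENSMUSG00000026750, chr2:38588036-38644087), the site with trypsin-like activity, was at 112, 107, 104 and 122 CPM in control input, against 162, 163, 149 and 192 CPM in RAM siRNA input. The groups were well apart, at 149% of the control mean (log2 fold change 0.58, SE 0.0879, adjusted p = 0.00150; with the block, 3.49e-09; edgeR's quasi-likelihood test). The call held without any single library. Psmb6, with caspase-like activity, was at 218, 214, 191 and 209 CPM and then at 193, 196, 185 and 223 CPM (log2 fold change -0.06, adjusted p = 0.666). Psmb5, with chymotrypsin-like activity, was at 16.7, 19.4, 17.1 and 20.2 CPM and then at 16.7, 18.5, 14.8 and 16.4 CPM (-0.15, adjusted p = 0.369). In both the groups overlapped. Psmb7 shares 405 exon bases with the antisense gene Nek6 (log2 fold change 0.12, adjusted p = 0.373), and whether reads were counted by strand is not given in the sources used here.

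The immunoproteasome subunits were scarce in every library. Psmb9 (ENSMUSG00000096727, chr17:34181987-34187764) had 7, 14, 10 and 17 counts in control input and 18, 33, 29 and 34 counts in RAM siRNA input. As levels these were 0.386, 0.730, 0.573 and 0.994 CPM against 1.02, 1.99, 1.63 and 1.99 CPM. The groups did not overlap, though the highest control library lay just under the lowest RAM siRNA library, and the log2 fold change was 1.30 (SE 0.306, adjusted p = 0.0160, edgeR's quasi-likelihood test). The call was lost without control replicate 1 (adjusted p = 0.0538) or RAM siRNA replicate 2 (0.05), and with the block the adjusted p was 1.90e-04. Psmb9 shares 212 exon bases with the antisense gene Tap1, which encodes a peptide transporter for antigen presentation (log2 fold change 0.36, adjusted p = 0.129). Psmb10 was at 8.99, 9.34, 7.44 and 8.47 CPM in control libraries, against 10.4, 8.21, 8.64 and 12.7 CPM in RAM siRNA input, with overlapping groups and an adjusted p of 0.350. Psmb8 had 1, 2, 0 and 2 counts and then 1, 1, 2 and 1 counts, too few for a comparison.

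**Figure D3:**
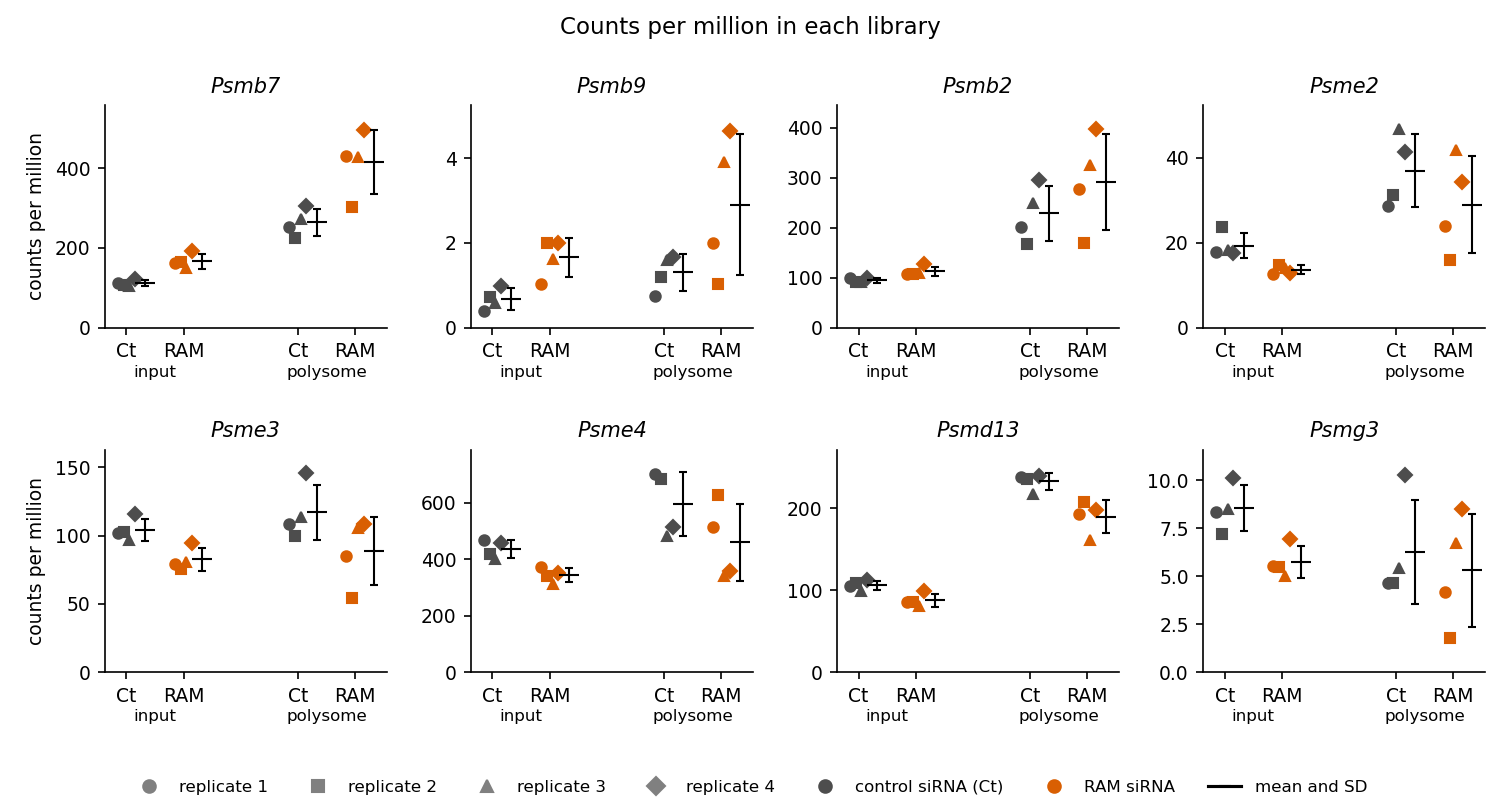
CPM of 8 proteasome genes in each of the 16 libraries (symbols, replicates 1 to 4; bars, mean and SD), input at the left and polysomes at the right of each panel, each fraction scaled on its own. The 8 genes are those of the 47 tested whose control and RAM siRNA input libraries do not overlap. Of them 5 are lower and 3 higher, against 8.91% and 9.11% of all genes tested. In polysomes replicate 2 of RAM siRNA is the lowest RAM siRNA library in 6 of the 8 panels and the highest in Psme4 and Psmd13.

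Psmb2, a structural beta subunit, also kept its input groups apart, at 99.5, 90.8, 90.6 and 99.5 CPM in control libraries, against 107, 107, 109 and 126 CPM in RAM siRNA libraries. Its log2 fold change of 0.24 (SE 0.0762) missed the threshold without the block (adjusted p = 0.0558) and passed it with the block (3.52e-04, edgeR's quasi-likelihood test). In all, 5 of the 47 genes had RAM siRNA libraries wholly below control libraries and 3 wholly above, against 8.91% and 9.11% of all genes tested.

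Psmd13 (ENSMUSG00000025487, chr7:140881968-140898643), a structural subunit of the lid, was at 105, 109, 99.3 and 112 CPM in control libraries, against 86.2, 85.6, 80.4 and 98.7 CPM in RAM siRNA input. Psmg3 (ENSMUSG00000029551, chr5:139823592-139826885), which with Psmg4 helps to form the alpha ring, was at 8.33, 7.20, 8.53 and 10.1 CPM and then at 5.51, 5.49, 4.99 and 6.96 CPM. In neither gene did the groups overlap, and in both RAM siRNA replicate 4, the highest, came close to the lowest control library. The log2 fold changes were -0.28 (SE 0.0770, adjusted p = 0.0335; with the block, 4.22e-05) and -0.57 (SE 0.141, adjusted p = 0.0199; with the block, 2.00e-04; edgeR's quasi-likelihood test). Without the block, the call of Psmd13 was lost on leaving out control replicate 1, 2 or 4 or RAM siRNA replicate 1, 2 or 3 (adjusted p 0.0836 to 0.0935). That of Psmg3 was lost without control replicate 1 or 4 or RAM siRNA replicate 1, 2 or 3 (0.0502 to 0.0621). Psmd13 shares 14.0% of its 75-base words with the antisense gene Sirt3 (log2 fold change -0.17), and Psmg3 shares 20.3% with the overlapping gene Gm26938, which had 0 counts. Psmg4, which pairs with Psmg3, was at 39.2, 39.8, 39.8 and 37.3 CPM and then at 39.3, 38.4, 37.1 and 37.1 CPM, with overlapping groups (log2 fold change -0.04, adjusted p = 0.735).

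The counts by role stand against 5.94% of all 12805 genes called lower and 6.95% higher without the block. With the block these shares were 19.0% and 20.3%. All 8 alpha ring genes had negative log2 fold changes in input, from -0.22 to -0.06. Of these, 0 passed the threshold without the block and 5 with it (Psma1, Psma3, Psma4, Psma5 and Psma6). The 6 base ATPases ranged from -0.24 to -0.02, with 0 called without and 3 called lower with the block (Psmc2, Psmc3 and Psmc6). Among 8 lid genes, Psmd13 alone was called without the block and 6 were called lower with it, with Psmd3 and Psmd8 not past the threshold. The 3 non-ATPase base genes had a median of -0.09, with Psmd2 called lower with the block. The 3 base chaperones had a median of 0.01 and gave 0 calls in both fits. The 4 structural beta genes had a median of -0.0009, and Psmb2 was called higher with the block. The inhibitor Psmf1 had -0.15 (adjusted p = 0.381; with the block, 0.0959).

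Across replicate pairs, the mean log2 CPM of the 5 cap genes changed in RAM siRNA input by -0.36, -0.37, -0.33 and -0.23 in pairs 1 to 4. The mean of the 3 catalytic beta genes was higher by 0.12, 0.14, 0.09 and 0.15, although Psmb7 alone rose among them. The alpha ring changed by -0.18, -0.19, -0.12 and -0.07, and the lid by -0.15, -0.13, -0.12 and -0.05. Pair 4 was the least negative in the alpha ring and the lid. It was also so in the cap mean, which includes the untested, low-count Psme2b (-0.63 in pair 3 and 0.07 in pair 4). The tested caps Psme1, Psme2 and Psme3 were least negative in pair 3 and Psme4 in pair 2. In polysomes the caps changed by -0.31, -0.71, -0.25 and -0.25 and the alpha ring by -0.04, -0.48, -0.09 and 0.00, so that pair 2 stood away from the others.

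**Figure D4:**
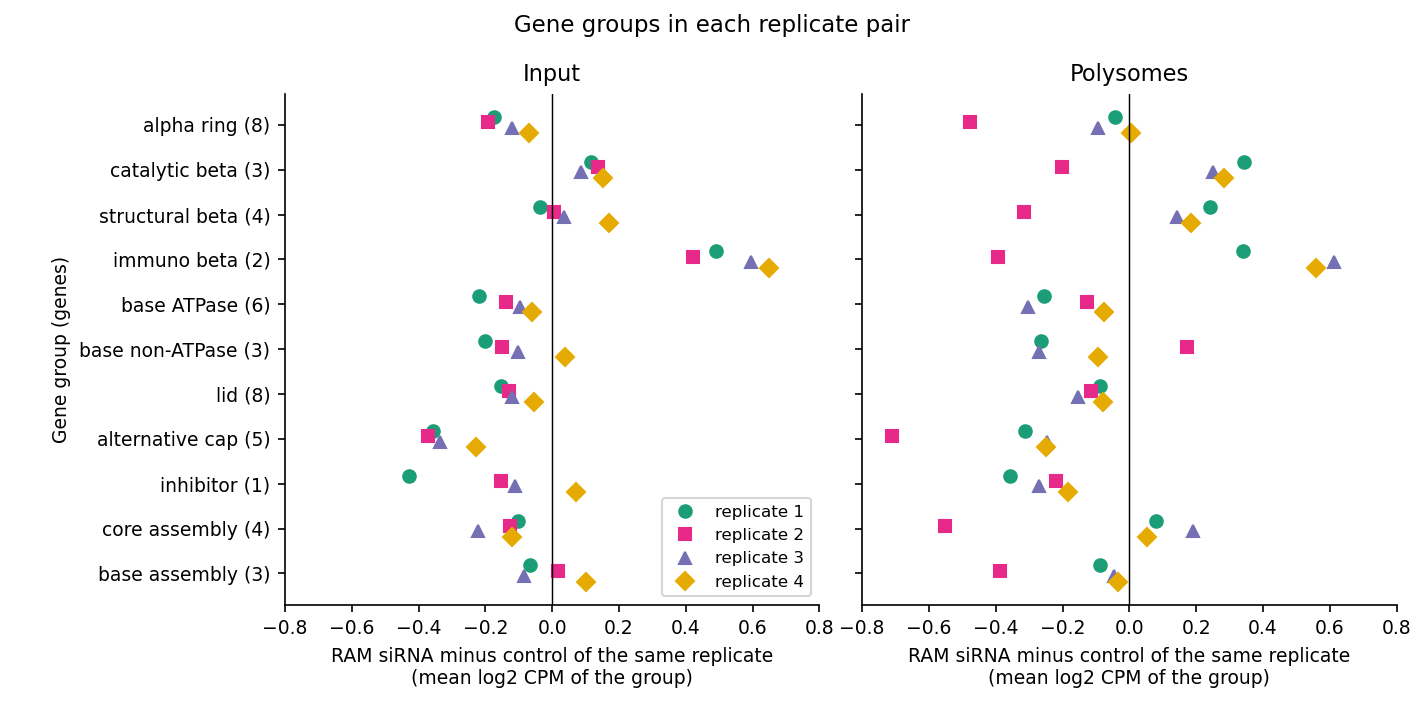
Difference in mean log2 CPM between RAM siRNA and control libraries of the same replicate number for each role group, in input (left) and polysomes (right); each symbol is 1 replicate pair. The caps, with the untested Psme2b among them, lie between -0.37 and -0.23 in input, and in polysomes pair 2 lies apart in most groups.

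In polysomes, Psmb7 and Psmb9 stood higher and the caps Psme2, Psme3 and Psme4 lower in RAM siRNA cells, in the fit that pairs replicates and in no other. Without the block, 0 of 47 genes passed the threshold in edgeR's quasi-likelihood test and 0 in DESeq2, while 2 and 3 had an unadjusted p under 0.05. Of all genes, 0.0234% were called lower and 0.0% higher by edgeR, and 1.12% and 1.22% by DESeq2. Simulated data were drawn from the block fits, with their replicate effects and 200 changes put in. On them the polysome fit and the loading fit without a block called few or none of these changes. The fits with the block called most of them, with 19 false calls in polysomes and 15 in loading, against 0 without a block. Because these data held replicate effects from the start, they favoured the block fits. Where such effects exist, a count of 0 without the block carries little information. With the block, 3 were lower and 2 higher, against 4.97% and 9.68% of all genes. Psmb7 was at 252, 225, 272 and 306 CPM in control libraries, against 431, 304, 427 and 497 CPM in RAM siRNA polysomes, higher in 4 of 4 pairs, with overlap through RAM siRNA replicate 2 alone (log2 fold change with the block 0.64, adjusted p = 0.00178). Psmb9 was at 0.739, 1.19, 1.61 and 1.67 CPM and then at 2.01, 1.04, 3.90 and 4.65 CPM, higher in 3 of 4 pairs (1.09, adjusted p = 0.00852). In both genes replicate 2 was the lowest RAM siRNA library. The counterpart Psmb6 was at 411, 381, 526 and 631 CPM and then at 472, 245, 555 and 675 CPM, and Psmb5 at 45.3, 41.3, 49.9 and 55.4 CPM and then at 47.1, 31.2, 50.6 and 57.6 CPM, both higher in pairs 1, 3 and 4 and lower in pair 2 (with the block, adjusted p = 0.811 and 0.752).

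Psme4 was at 702, 684, 483 and 516 CPM in control polysomes and at 513, 629, 342 and 358 CPM in RAM siRNA polysomes. Psme3 was at 108, 99.5, 114 and 146 CPM and then at 85.1, 54.5, 106 and 109 CPM. Psme2 was at 28.6, 31.1, 46.8 and 41.5 CPM and then at 23.9, 15.9, 41.8 and 34.4 CPM. All 3 were lower in 4 of 4 pairs and overlapped between groups. With the block the log2 fold changes were -0.40 (adjusted p = 0.0356), -0.43 (0.0309) and -0.41 (0.0494; edgeR's quasi-likelihood test). Without pair 2 the block fit called 9 genes lower and 5 higher (14.3% and 21.3% of all genes), and Psme4, Psme3, Psme2, Psmb7 and Psmb9 were among them. Without pair 1 it called 0 lower and 2 higher (2.07% and 4.22%), without pair 3 it called 2 and 2 (3.19% and 6.15%), and without pair 4 it called 0 and 1 (2.4% and 4.77%), Psmb7. All 3 cap calls were lost without pair 1 or without pair 4.

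Psmd13 and Psmd6, both lid subunits, had polysome groups that did not overlap, and 0 genes did so upward (all genes, 3.76% and 2.61%). Psmd13 was at 238, 236, 218 and 239 CPM and then at 193, 207, 161 and 198 CPM, and Psmd6 was at 316, 304, 312 and 312 CPM and then at 290, 271, 247 and 286 CPM. Neither was called with the block (adjusted p = 0.0829 and 0.298). Psmg3 in polysomes was at 4.63, 4.68, 5.43 and 10.3 CPM and then at 4.19, 1.80, 6.76 and 8.49 CPM, with wide overlap.

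The polysome difference of pair 2 tended to be more positive in longer transcripts, with exceptions, and that of the other pairs more negative. Psma7 and Psmd1 are examples, and the long transcript of Psme3 goes against them, with a fall from 99.5 to 54.5 CPM in pair 2. Psma7, the alpha subunit of a short transcript, changed from 292 to 199 CPM in pair 2 but from 346 to 381, 401 to 448 and 447 to 488 CPM in pairs 1, 3 and 4. Psmd1, the large base scaffold, changed from 277 to 378 CPM in pair 2 and from 212 to 182, 127 to 107 and 166 to 152 CPM in pairs 1, 3 and 4. Over the 47 genes, Spearman's rho of transcript length with the polysome difference was 0.39 in pair 2 and -0.48, -0.52 and -0.41 in pairs 1, 3 and 4. Over 12777 tested genes with a length it was 0.41 in pair 2 and -0.12, -0.14 and -0.25. These are correlations across genes of the same library pair and carry no test.

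The change of polysome loading, the polysome change less the input change, passed the threshold for 0 of 47 genes without a block, with the replicate block and with a block within each fraction (edgeR's quasi-likelihood test; 0.0% of all genes lower and 0.0% higher without a block, 0.0156% and 0.0% with the block within each fraction). DESeq2 also gave 0. At an unadjusted p under 0.05 there were 0 genes without a block and 1, Psmb10, with the block within each fraction. Psmb10 also had the smallest p of the negative changes without a block, a log2 change of -0.51 (SE 0.325, unadjusted p = 0.139), and its polysome levels were 6.15, 6.17, 5.38 and 9.33 CPM in control libraries, against 4.77, 3.76, 6.08 and 8.49 CPM in RAM siRNA cells. Psmg3 had the smallest p of the positive changes (0.28, SE 0.479, unadjusted p = 0.568). The median change of the 47 genes was -0.04 (all genes, 0.0013). Its sign changed when some single libraries were left out (0.0931 without RAM siRNA input replicate 4, where all genes had 0.0624). Under size factors of DESeq2 it was -0.01, where the median of all genes was 0.04.

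In control cells, proteasome mRNAs took a larger place in polysomes than in input. The log2 ratio of polysome to input level, which is relative to the average gene because each library is scaled to its own total, was above 0 and past the threshold for 41 of 47 genes and below 0 for 1, against 33.1% and 34.3% of all genes (edgeR's quasi-likelihood test). With the replicate block 42 were higher and 1 lower (35.1% and 37.2% of all genes). The median ratio was 1.21 on the log2 scale over the 47 genes and -0.0008 over all genes. All 8 alpha ring genes (0.83 to 1.61), all 3 catalytic beta genes (1.33 to 1.49), all 4 structural beta genes (1.26 to 1.48), all 6 base ATPases (1.14 to 1.28) and all 8 lid genes (0.99 to 1.42) were called higher. In RAM siRNA cells 39 were higher and 2 lower (27.3% and 25.9% of all genes), with a median of 1.22.

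Psma6, the highest, had log2 ratios of 1.62, 1.41, 1.72 and 1.77 in control replicates 1 to 4, Psme1 of 1.61, 1.33, 1.62 and 1.47, and Psmb5 of 1.61, 1.22, 1.60 and 1.56. Replicate 2 was the lowest in each. In CPM, Psma6 was at 198, 187, 190 and 213 in control input and at 530, 450, 588 and 666 in control polysomes. The fitted values were 1.61 (SE 0.140), 1.5 (SE 0.122) and 1.49 (SE 0.127). The 3 lowest ratios were those of the assembly chaperones Psmg4 and Psmg3 and of the immunoproteasome subunit Psmb10. Psmg4, the gene called lower, had ratios of -1.32, -1.57, -1.10 and -0.64 (fitted -1.18, SE 0.172, adjusted p = 1.02e-04), whereas the chaperones Psmg1 and Psmg2 had 1.32 and 1.21. Its input level was 39.0 ± 1.16 and its polysome level 16.1 ± 4.44 CPM (SD, n = 4), and its principal transcript, of 555 bases, is the shortest of the 48. Psmg3 had ratios of -0.60, -0.44, -0.52 and 0.15 and Psmb10 of -0.33, -0.42, -0.35 and 0.26, with replicate 4 the high one in both (fitted -0.34 and -0.23, adjusted p = 0.247 and 0.284). Without control polysome replicate 4 both were called lower, at -0.70 and -0.43. In RAM siRNA cells Psmb10 had -0.93, -0.91, -0.46 and -0.47 and was called lower (-0.69, adjusted p = 0.0451).

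Other genes not past the threshold were Psmd1 (0.09, adjusted p = 0.706), Psme3 (0.27, 0.0972; called with the block) and Psmc3ip (0.32, 0.137), the recombination factor. Psme4, the longest transcript of the family, had 0.56 (adjusted p = 0.00720) and Psmd2, the other large scaffold, 0.73. Spearman's rho of transcript length with the ratio was -0.36 over the 47 genes and -0.35 over 12777 genes, a description across genes with no test.

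**Figure D5:**
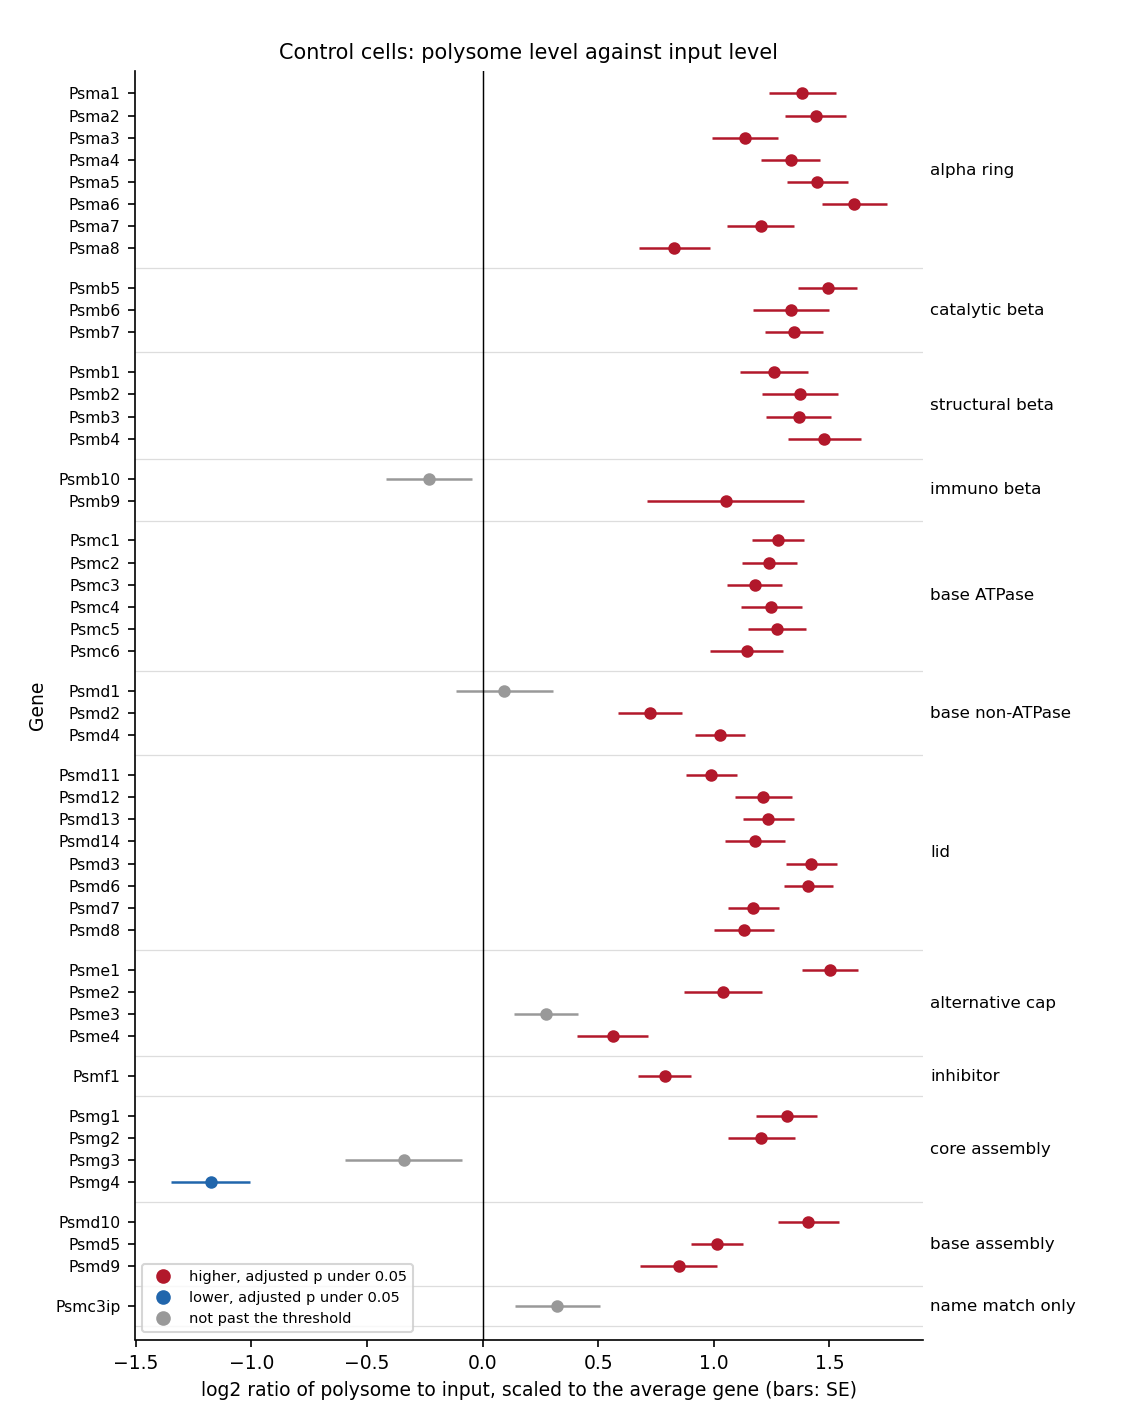
Log2 ratio of polysome to input level of each tested gene in control cells (points; bars, SE; 4 libraries in each fraction), by role. Standard core and regulatory subunits gather between 0.73 and 1.61 apart from Psmd1 at 0.09, while Psmg4 lies at -1.18.

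Beside these genes, 33 of 34 listed genes for other subunits, bound enzymes, shuttles and regulators of the proteasome were found and tested. In input 0 were lower and 2 higher (5.94% and 6.95% of all genes). Pomp, which matures the core particle, was among the higher genes, at 56.5, 52.0, 51.5 and 60.0 CPM in control libraries, against 69.5, 70.4, 61.4 and 81.6 CPM in RAM siRNA input, with no overlap (log2 fold change 0.36, adjusted p = 0.0202, edgeR's quasi-likelihood test). With the block 8 were lower and 4 higher (19.0% and 20.3% of all genes). Nfe2l1, which encodes Nrf1, had -0.03 (adjusted p = 0.890), the ubiquitin receptor Adrm1 0.14 (0.358; with the block, 0.0227), the lid subunit Sem1 -0.09 (0.360), and the bound deubiquitinases Usp14 and Uchl5 -0.12 (0.251; with the block, 0.0343) and -0.02 (0.931). In control polysomes 16 of the 33 were higher than in input and 10 lower (33.1% and 34.3% of all genes), with a median of 0.31. Adrm1, at 1.13, lay among the other subunits, and Sem1, the smallest subunit, lay far below them at -1.46.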

How the data were processed

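RNA was sequenced in 16 libraries after removal of ribosomal RNA with a kit that keeps the strand. The authors mapped reads to GRCm38/mm10 with STAR 2.5.1b and deposited whole-number counts per gene from htseq-count, with no normalization. The strand setting of the counting and the annotation release are not given in the sources used here. Symbols, lengths and 3′ UTRs came from GENCODE M21, promoters from RefSeq. Tests used edgeR 4.0.16 in R 4.3.3 (glmQLFit and glmQLFTest) with TMM scaling, a filter of at least 1 CPM in at least 10 of 16 libraries (12805 genes), Benjamini-Hochberg adjustment over all of them, a threshold of 0.05 and no block. SEs were derived from the F statistic. CPM values were TMM-scaled within each fraction, and log2 CPM and ratios in single replicates had a pseudocount of 0.5 CPM. Each library had at least 16647523 counts, and replicates differed beyond counting noise (lowest chi-square per gene 5.09).

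The 4 replicates were separate occasions per the study. Same-numbered libraries deviated together from their group means (r of 0.315 to 0.639 between control and RAM siRNA input, 0.541 to 0.897 between polysomes), so a fit with the replicate number as a block was also made. The code was tested on data simulated from the block fits with their replicate effects, where the polysome and loading fits without a block had little power. Values in every library are given for genes called, those with the smallest p for loading change, the 3 highest and 3 lowest control ratios and the catalytic and immunoproteasome subunits, with Psmb2, Psma7, Psmd1, Psmd6 and the input of Psmg4 chosen after their values were seen. All genes, role groups and lists (pathway genes and cell markers) were chosen with earlier results of these data known. Alternatives were RLE and upper-quartile scaling, DESeq2 1.42.0, other filters and leaving out libraries. The RAM siRNA polysome ratios, fits without replicate pairs, exon-union lengths and 3′ UTR words were added after seeing the data. Paaf1, a pathway gene, was not analysed here. The values of 1 called pathway gene are not reported here.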

Additional observations from a re-analysis of the deposited data

Results flagged for a closer look

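Of 108 groups of 4 libraries checked among the named genes and role groups, 6 held a library whose gap to its nearest neighbour, as a share of the range of its group, exceeded Dixon's 95% critical value, and chance gives about 5% of groups. In input, Psmb2 stood out at 126.4 CPM in RAM siRNA replicate 4, the mean log2 CPM of the 4 structural beta genes, which include Psmb2, at 7.53 in the same library, and Psme2 at 23.6 CPM in control replicate 2. In polysomes, Psmd13 stood out at 217.5 CPM in control replicate 3, below the others, Psmg3 at 10.3 CPM in control replicate 4, and the inhibitor Psmf1 at 5.45 log2 CPM in RAM siRNA replicate 4. The call of Psme2 in input held without control replicate 2. The causes were not tested.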

How the results depend on the processing

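In input, the replicate block moved the count of lower genes among the 47 from 5 to 20 (19 without Psmc3ip). Over all 12805 genes it moved from 761 to 2433. Leaving out single libraries gave 1 to 12 lower and 1 to 2 higher (all genes, 426 to 1149 and 482 to 1357). With the block and a replicate pair left out, the input counts were 10, 13, 14 and 23 lower and 3 to 4 higher. Of all 12805 genes, these fits called 1705, 1929, 2034 and 2396 lower and 1874 to 2571 higher. With replicates 1 and 2 alone 23 were lower and 3 higher (all genes, 2244 and 2400). With replicates 3 and 4 alone 5 were lower and 4 higher (all genes, 1153 and 1219). In polysomes the block gave 3 lower and 2 higher in place of 0. With a pair left out it gave 0 to 9 lower and 1 to 5 higher (all genes, 265 to 1827 and 541 to 2731). With replicates 1 and 2 alone 0 were lower and 0 higher (all genes, 122 and 299). With replicates 3 and 4 alone 3 were lower and 4 higher (all genes, 1185 and 2061). The fits without replicate pairs were chosen after seeing the data. The median loading change ranged from -0.16 to 0.0931 when single libraries were left out. It was 0.0931 without RAM siRNA input replicate 4 (all genes, 0.0624) and -0.16 without RAM siRNA polysome replicate 4 (all genes, -0.0145). In control cells the count of genes lower in polysomes was 1 to 3 when libraries were left out (all genes, 4021 to 4585). It was 3 with the block without replicate 4 (all genes, 4633). The median ratio was 1.34 with no filter on low counts and 1.30 with filterByExpr. The sign of the median loading change thus depended on single libraries. It was also positive without RAM siRNA polysome replicate 2 (0.0425, all genes -0.0469) and with no filter (0.0286). With no filter the median of all genes was higher, at 0.0707. Psmb2, Psmb7, Psmb9, Psmd13, Psme2, Psme3, Psme4 and Psmg3 kept their sign in input, and Psmb7, Psmb9, Psme2, Psme3 and Psme4 in polysomes, under every alternative tried. The genes named for input are those whose groups did not overlap there, so leaving out libraries could hardly turn their sign. Counts of Psmb8, Psmb9 and Psmb11 were too low for small differences to be detectable at this depth.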
